A study of Mus musculus with 48 samples.

Results

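Cells from the eyes of wild-type mice at postnatal day 14 (P14), purified in 2 ways, were compared. One group holds 3 libraries of eye cells collected by fluorescence-activated cell sorting (FACS). The other holds 3 libraries labelled as retinal ganglion cells (RGC), collected by immunopanning, from which RNA carrying an ethynyl uridine (EU) label was captured. The 6 libraries were chosen by these labels and by no measured value, out of 48 libraries in a series on RNA in the axons of RGC. Mice of both groups are labelled naïve for axotomy, with the eye as the tissue, and the labels name no strain. FACS sorts single cells by their fluorescence, immunopanning holds cells on a dish coated with an antibody to a surface protein, and EU is a uridine analogue that is built into newly made RNA. The labels do not say which cells the sorter kept, which antibody coated the dish or whether each library stands for an animal of its own. The p-values therefore measure the spread between these libraries, which may be technical. Purification and EU capture differ together between the groups, so that their parts in a difference cannot be told apart. In RNA from many cells, fewer cells of a type and less RNA per cell cannot be told apart either.

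The retina turns light into spike trains in a fixed chain of cells. Rods and cones hold the photopigments and the phototransduction cascade in an outer segment, a modified cilium, and release glutamate at ribbon synapses onto bipolar and horizontal cells. Bipolar cells drive RGC, whose axons form the optic nerve, while amacrine cells inhibit both, Müller glia span the whole depth of the tissue and recycle glutamate, and microglia are its resident macrophages. Rods are the most numerous cells of the mouse retina and RGC are a small minority, which is why RGC are purified before their RNA is studied.

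The FACS libraries held 48263706, 46395650 and 40395916 estimated counts and the immunopanned EU libraries 26025733, 24573242 and 20557865, while totals over the whole series ran from 2558141 to 48263706. Levels are given as normalised CPM, counts scaled by library size and a TMM factor, or as TPM, transcript abundances as deposited, which also divide by transcript length. In the text, EU replicates 1 to 3 are the immunopanned EU libraries. EU replicate 1 stood apart from replicates 2 and 3 of its group. Across 15694 genes, Pearson's r of log2(CPM + 0.5) was 0.836 to 0.897 between EU replicate 1 and the FACS libraries, but 0.724 and 0.704 between it and EU replicates 2 and 3. The FACS libraries had r of 0.889 to 0.953 among themselves, EU replicates 2 and 3 had 0.764, and both had 0.605 to 0.671 with the FACS libraries. These correlations are across genes of libraries that share genes and cell types, and are given as a description. EU replicate 1 was singled out after its values were seen, and log2 fold changes are given with and without it.

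**Figure D1:**
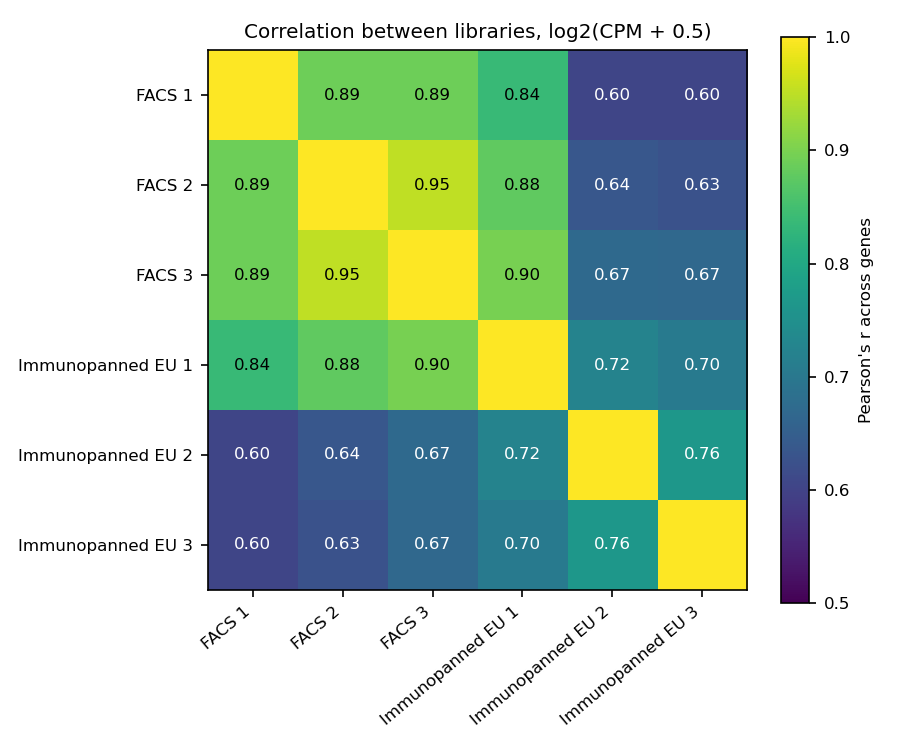
Pearson's r between each pair of the 6 libraries, computed across 15694 genes on log2(CPM + 0.5), with the library on both axes and r as colour and number. EU replicate 1 shows r of 0.84 to 0.90 with the 3 FACS libraries and of 0.70 and 0.72 with the other immunopanned EU libraries.

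Mitochondrially encoded genes took 6.8, 3.01 and 2.53% of the counts of FACS replicates 1 to 3 and 7.76, 54.3 and 45.8% of those of EU replicates 1 to 3. EU replicates 2 and 3 were thus about as rich in mitochondrial RNA as in all nuclear RNA, whereas EU replicate 1 lay near the FACS range. The number of genes over 1 TPM was 12327, 14231 and 13371 in the FACS libraries and 12821, 10066 and 9430 in the EU libraries. Because TPM sum to a fixed total, a large mitochondrial share lowers the TPM of all other genes in a library. The median log2 fold change of all genes, FACS minus EU, was 0.11 on TMM-normalised counts and 1.10 on log2(TPM + 1), and 0.40 and 1.59 without EU replicate 1. Directions of gene lists are therefore given relative to the median of all genes on the same scale.

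No gene passed the test over all 6 libraries. With edgeR's quasi-likelihood test and Benjamini-Hochberg adjustment, 0 of 15694 genes (0%) had an adjusted p under 0.05, the smallest adjusted p was 0.137, and 2665 genes (17%) had an unadjusted p under 0.05. DESeq2 called 661 genes higher (4.21%) and 1291 lower (8.23%) in FACS libraries on the same counts, and limma on TPM called 676 higher (5.21%) and 72 lower (0.555%). 18.9% of the genes (2968) had all 3 FACS libraries above all 3 EU libraries, and 11.6% (1824) had them below. These counts, like those of list members without overlap below, are on normalised CPM. On TPM they were 4663 and 655, so they depend on the scaling. Without EU replicate 1, edgeR called 932 of 16941 genes higher in FACS libraries (5.5%) and 845 lower (4.99%). Leaving out any of the other 5 libraries gave 0 called genes. In what follows, a gene is said to be higher or lower by the test only for the comparison of 3 FACS libraries with EU replicates 2 and 3. That comparison was picked for the calls after the values were seen. Its adjusted p-values therefore describe these 5 libraries and are not a valid test of a difference between the 2 purifications. Fold changes are log2 values, FACS minus EU, with ± SE.

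Rod transcripts dominated the FACS libraries and EU replicate 1, and were lower in EU replicates 2 and 3. The 15 rod genes of the marker list together had 70192, 79586 and 141758 TPM in FACS replicates 1 to 3 and 74864, 3402 and 5918 TPM in EU replicates 1 to 3. EU replicate 1 thus lay between FACS replicates 1 and 2, and the groups overlapped. With mitochondrial genes left out of the TPM total, the rod sums were 81104, 85844 and 149083 in FACS and 91646, 10484 and 14889 in EU libraries. Relative to the RGC marker list of the same library, which does not depend on the scaling, the rod sum was 1116, 2039 and 3086 times as high in the FACS libraries, 1616 times in EU replicate 1, and 15.2 and 16.8 times in EU replicates 2 and 3. The rod sum exceeded the RGC sum in all 6 libraries, including those labelled RGC.

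**Figure D2:**
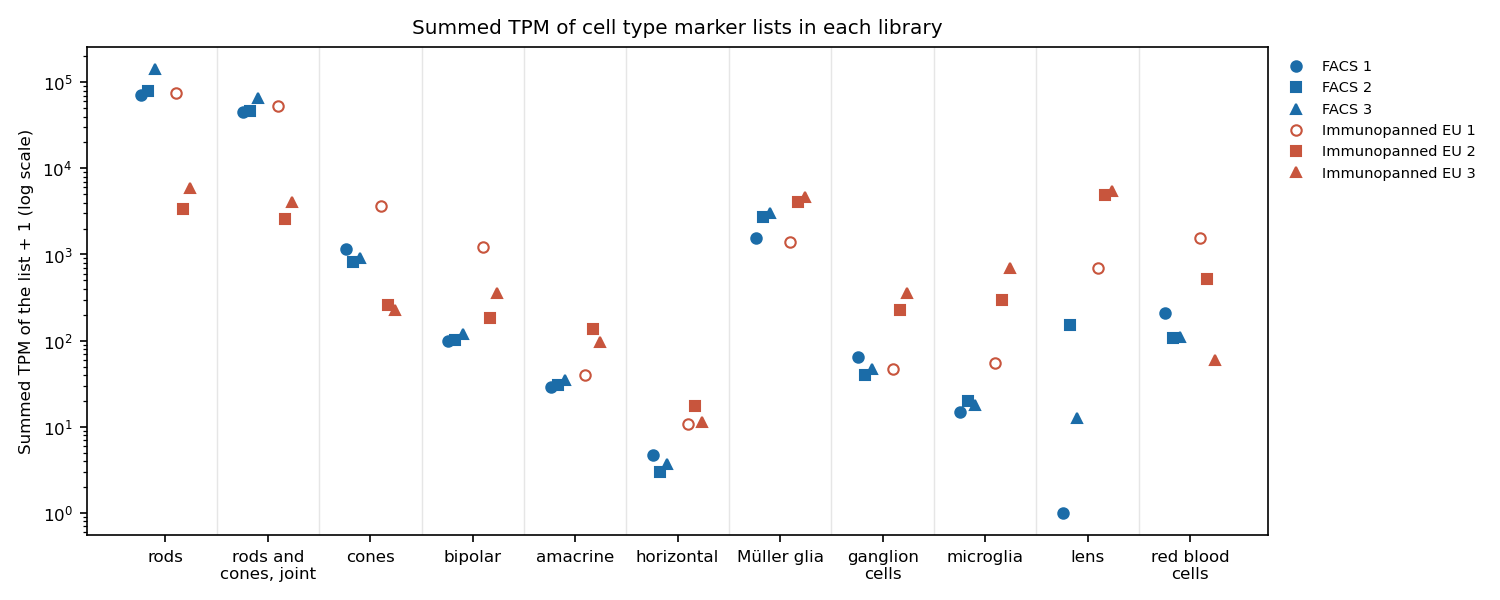
Summed TPM + 1 (y axis, log scale) of 11 marker lists (x axis) in each library, with 1 point per library, blue for FACS and red for immunopanned EU, and an open circle for EU replicate 1. In the rod and joint photoreceptor lists EU replicate 1 sits among the FACS libraries, while bipolar, amacrine, horizontal, microglia and lens lists are lower in all 3 FACS libraries than in all 3 EU libraries.

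Gnat1, the alpha subunit of rod transducin (chr 9, 107674474 to 107679712, GRCm38), had 16069, 15255 and 38390 normalised CPM in FACS replicates 1 to 3 and 25218, 2842 and 3579 in EU replicates 1 to 3. For Gnat1 the groups overlapped. Gnat1 had a log2 fold change of 1.14 ± 1.10 (adjusted p = 0.647) over 6 libraries and 2.88 ± 0.59 (adjusted p = 0.0357) without EU replicate 1. Sag (rod arrestin, which ends the light response; chr 1, 87803680 to 87845158) had 8968, 8436 and 20017 normalised CPM in FACS and 10181, 913 and 1904 in EU libraries. For both Gnat1 and Sag, EU replicate 1 lay inside the FACS range. For Sag the groups overlapped. Sag had a log2 fold change of 1.53 ± 1.03 (adjusted p = 0.499) over 6 libraries and 3.17 ± 0.63 (adjusted p = 0.034) without EU replicate 1. Cngb1, a subunit of the rod cation channel that closes in light (chr 8, 95239045 to 95306585), was the member with the smallest adjusted p without EU replicate 1. It had 1771, 1974 and 2507 normalised CPM in FACS replicates 1 to 3 and 1595, 203 and 202 in EU replicates 1 to 3. For Cngb1 all FACS libraries lay above all EU libraries. Cngb1 had a log2 fold change of 1.64 ± 0.87 (adjusted p = 0.387) over 6 libraries and 3.38 ± 0.34 (adjusted p = 0.00893) without EU replicate 1. Pde6g, the inhibitory subunit of the rod phosphodiesterase, had 7034, 6907 and 23820 normalised CPM in FACS and 10021, 1347 and 2209 in EU libraries. It did not pass the test without EU replicate 1, with a log2 fold change of 2.85 ± 0.74 (adjusted p = 0.0618), and had 1.48 ± 1.01 (adjusted p = 0.506) over 6 libraries. The rod transcription factor Nr2e3 had 2909, 2636 and 3714 normalised CPM in FACS and 2406, 220.3 and 435 in EU libraries. For Nr2e3 all FACS libraries lay above all EU libraries. Nr2e3 had a log2 fold change of 1.60 ± 0.89 (adjusted p = 0.416) over 6 libraries and 3.26 ± 0.45 (adjusted p = 0.014) without EU replicate 1. Nrl, which acts above Nr2e3 in rod fate, had 1559, 1598 and 3842 normalised CPM in FACS and 1895, 537 and 758 in EU libraries. Nrl did not pass, at 1.87 ± 0.53 (adjusted p = 0.074) without EU replicate 1, and had 1.13 ± 0.68 (adjusted p = 0.445) over 6 libraries.

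Of the 15 rod genes, all tested, 3 had groups that did not overlap, all 3 with FACS higher, against 18.9% of all genes. With 6 libraries the share of rod genes without overlap was thus near that of all genes. Without EU replicate 1, 9 of 15 were higher and 0 lower in FACS libraries, against 5.5% and 4.99% of all genes. The library left out was the only EU library with a rod sum in the FACS range. Leaving it out favours such calls, so the count of 9 is a description and no test. The list's median log2 fold change was 1.24 with 6 libraries, against 0.11 for all genes, and 2.85 against 0.40 without EU replicate 1. Genes used by rods and cones alike were mostly higher too. Of 24, 6 had FACS above EU with no overlap, against 18.9% of all genes. Without EU replicate 1, 17 were higher and 0 lower, against 5.5% and 4.99% (median log2 fold change 1.21 with 6 libraries and 2.71 without). The sum of this list in EU replicate 1 also lay in the FACS range, so the same limit holds. Both lists stayed above the median of all genes with RLE factors over 6 libraries, and on log2(TPM + 1) with and without EU replicate 1. Among the joint genes, Rom1, a structural protein of outer segment discs, had 8433, 6895 and 16375 normalised CPM in FACS and 11391, 948 and 1348 in EU libraries. For Rom1 the groups overlapped. Rom1 had a log2 fold change of 1.21 ± 1.06 (adjusted p = 0.612) over 6 libraries and 3.22 ± 0.55 (adjusted p = 0.0231) without EU replicate 1. Tulp1, which is needed for transport of proteins to the outer segment, had 1093, 1049.5 and 1319 normalised CPM in FACS and 853, 91.5 and 106 in EU libraries. For Tulp1 all FACS libraries lay above all EU libraries. Tulp1 had a log2 fold change of 1.72 ± 0.88 (adjusted p = 0.369) over 6 libraries and 3.56 ± 0.32 (adjusted p = 0.00893) without EU replicate 1. Crx, the homeodomain factor that switches on photoreceptor genes (chr 7, 15865947 to 15879968), had 1846, 1671 and 2418 normalised CPM in FACS and 2747, 391 and 596 in EU libraries, with EU replicate 1 the highest of all 6. For Crx the groups overlapped. Crx had a log2 fold change of 0.67 ± 0.77 (adjusted p = 0.7) over 6 libraries and 2.02 ± 0.36 (adjusted p = 0.0265) without EU replicate 1. Pdc, which binds transducin, was also among the most abundant joint genes, with 3756, 3268 and 8306 normalised CPM in FACS and 9688, 1576 and 2385 in EU libraries.

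CRX recognises DNA with the core TAATCC. Promoters of 3 photoreceptor genes described above are shown, chosen because they carry that core. Those of Nr2e3, Nrl, Rom1, Tulp1 and Pdc, also described above, have no match in the same window. Shown are the 250 bases before the start site from RefSeq on GRCm38.p6, 5′ to 3′ on the strand of the gene. TAATCC or its reverse complement GGATTA is in capitals. The windows are chr1:87803430-87803679 (plus strand) for Sag, chr8:95306586-95306835 (minus strand) for Cngb1 and chr7:15879956-15880205 (minus strand) for Crx.
Sag: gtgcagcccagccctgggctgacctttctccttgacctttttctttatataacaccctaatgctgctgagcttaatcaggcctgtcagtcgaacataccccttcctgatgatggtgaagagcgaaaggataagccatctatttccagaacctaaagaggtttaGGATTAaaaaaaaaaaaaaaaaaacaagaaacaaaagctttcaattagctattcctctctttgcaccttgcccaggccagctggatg
Cngb1: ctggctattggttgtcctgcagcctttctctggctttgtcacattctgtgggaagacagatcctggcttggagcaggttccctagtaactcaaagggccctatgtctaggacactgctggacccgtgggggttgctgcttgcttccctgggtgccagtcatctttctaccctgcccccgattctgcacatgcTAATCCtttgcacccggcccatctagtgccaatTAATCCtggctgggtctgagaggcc
Crx: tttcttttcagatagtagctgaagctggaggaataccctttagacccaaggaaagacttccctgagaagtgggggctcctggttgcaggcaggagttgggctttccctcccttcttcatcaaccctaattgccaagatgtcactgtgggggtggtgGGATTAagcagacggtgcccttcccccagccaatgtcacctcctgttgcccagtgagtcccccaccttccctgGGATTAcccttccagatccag
The core starts at -87 in Sag, at -58 and -25 in Cngb1 and at -94 and -21 in Crx, counted back from the start site. On either strand it was present in 5 of 10 rod genes with a matched promoter (50.00%) and in 6 of 19 joint photoreceptor genes (31.6%). It was present in 2 of 9 Müller glia genes, in 0 of 8 RGC genes and in 6.38% of 27025 promoters of the same length. These are letter matches, not binding sites. Sequence of Pde6g and Gnat1 is not shown here.

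**Figure D3:**
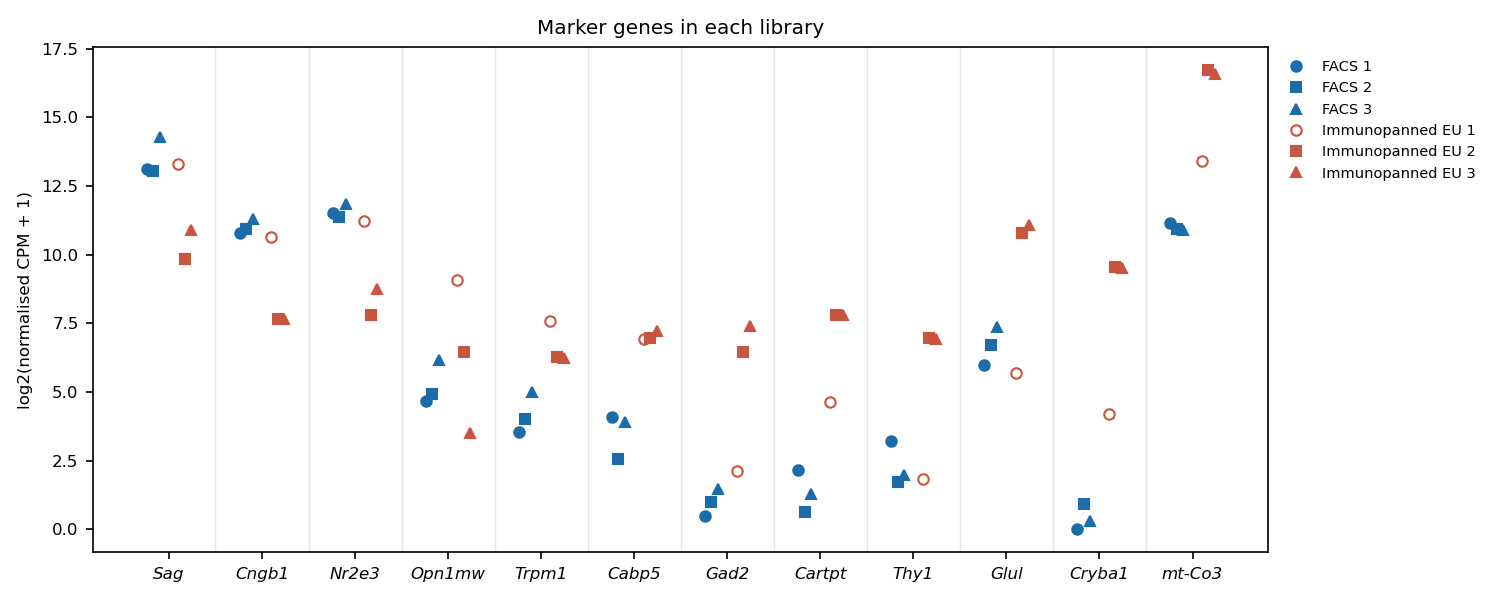
Log2(normalised CPM + 1) of 12 marker genes (x axis) in each library, with 1 point per library, blue for FACS and red for immunopanned EU, and an open circle for EU replicate 1. In Sag, Cngb1, Nr2e3, Glul and Thy1 the open circle lies near the FACS points, in Trpm1 it lies above and in Cabp5 close to the other EU points, and in Cartpt, Cryba1 and mt-Co3 it lies between the groups.

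Genes of the photoreceptor cilium and of its ribbon synapse followed the rod genes in part. Of 26 cilium and disc genes, 9 were higher and 0 lower in FACS libraries without EU replicate 1, against 5.5% and 4.99% of all genes (median log2 fold change 0.68 with 6 libraries and 1.53 without). With 6 libraries, 7 of 26 had no overlap with FACS higher and 1, Ift20, with FACS lower, against 18.9% and 11.6% of all genes. Rpgrip1, which anchors the ciliopathy protein RPGR in the connecting cilium, had 1581, 1809.6 and 1513 normalised CPM in FACS replicates 1 to 3 and 1359, 68.7 and 80.4 in EU replicates 1 to 3. For Rpgrip1 all FACS libraries lay above all EU libraries. Rpgrip1 had a log2 fold change of 1.70 ± 1.10 (adjusted p = 0.481) over 6 libraries and 4.47 ± 0.33 (adjusted p = 0.00893) without EU replicate 1. Of 17 ribbon synapse genes, 7 were higher and 1 lower without EU replicate 1, against 5.5% and 4.99% of all genes, so that the lower share is near that of all genes (medians 0.63 with 6 libraries and 1.51 without). Slc17a7, the vesicular glutamate transporter of photoreceptors, had 275, 267 and 266 normalised CPM in FACS and 59.7, 10.8 and 18.8 in EU libraries. For Slc17a7 all FACS libraries lay above all EU libraries. Slc17a7 had a log2 fold change of 3.18 ± 0.67 (adjusted p = 0.137) over 6 libraries and 4.20 ± 0.40 (adjusted p = 0.00893) without EU replicate 1. Cacna1f, the calcium channel subunit at the ribbon, had 318, 339 and 287 normalised CPM in FACS and 231, 28.9 and 32.4 in EU libraries. Cacna1f had a log2 fold change of 1.69 ± 0.81 (adjusted p = 0.341) over 6 libraries and 3.38 ± 0.31 (adjusted p = 0.00893) without EU replicate 1. Ctbp2, whose short form is the ribbon protein RIBEYE, had 349, 327 and 412 normalised CPM in FACS replicates 1 to 3 and 96, 113 and 130.3 in EU replicates 1 to 3, and here EU replicate 1 lay with the other EU libraries. For Ctbp2 all FACS libraries lay above all EU libraries. Ctbp2 had a log2 fold change of 1.68 ± 0.37 (adjusted p = 0.137) over 6 libraries and 1.60 ± 0.29 (adjusted p = 0.0267) without EU replicate 1. The list's lower gene was Cplx3, a complexin of retinal ribbon synapses and amacrine cells, with 273, 173 and 196 normalised CPM in FACS and 462, 886 and 642 in EU libraries. For Cplx3 all FACS libraries lay below all EU libraries. Cplx3 had a log2 fold change of −1.63 ± 0.44 (adjusted p = 0.154) over 6 libraries and −1.82 ± 0.33 (adjusted p = 0.0264) without EU replicate 1. Cilium and ribbon lists stayed above the median of all genes under every scaling tried.

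Cone genes set EU replicate 1 apart from all 5 other libraries. The 12 cone genes summed to 1158, 824 and 905 TPM in FACS replicates 1 to 3 and 3629, 259 and 223 TPM in EU replicates 1 to 3. With mitochondrial genes left out of the TPM total, the sums were 1338, 888 and 952 in FACS and 4443, 799 and 560.4 in EU libraries. EU replicate 1 had the highest cone sum and EU replicates 2 and 3 the lowest on both scales, while single cone genes differed from this order. Opn1mw, the middle-wavelength cone opsin (chr X, 74127464 to 74150760), had 24.7, 29.5 and 71.5 normalised CPM in FACS replicates 1 to 3 and 546, 86.6 and 10.5 in EU replicates 1 to 3. Opn1sw, the short-wavelength opsin, had 244, 118 and 226 normalised CPM in FACS and 811, 66.7 and 21.5 in EU libraries. Gnat2, the alpha subunit of cone transducin, had 9.74, 15.6 and 37 normalised CPM in FACS and 299.5, 64.7 and 43 in EU libraries. For Gnat2 all FACS libraries lay below all EU libraries. Gnat2 had a log2 fold change of −2.71 ± 0.87 (adjusted p = 0.177) over 6 libraries and −1.35 ± 0.66 (adjusted p = 0.212) without EU replicate 1. No cone gene passed the test without EU replicate 1. Opn1mw had a log2 fold change of −2.36 ± 1.18 (adjusted p = 0.363) with 6 libraries and −0.19 ± 0.92 (adjusted p = 0.902) without. The sign of Opn1mw turned with limma on TPM at a pseudocount of 0.1 (0.033). The list's median log2 fold change was −1.41 with 6 libraries and −0.07 without EU replicate 1, below the median of all genes on each scale.

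Bipolar cell genes summed to less in every FACS library than in every EU library. The 13 genes of the list summed to 98.4, 102 and 119 TPM in FACS replicates 1 to 3 and 1215, 181 and 355 TPM in EU replicates 1 to 3, and here EU replicate 1 was the highest. The log2 ratio of the group means of the sum was −2.45 with 6 libraries and −1.33 without EU replicate 1. Trpm1, the channel of ON bipolar cells that opens in light (chr 7, 64153835 to 64269775), had 10.6, 15.2 and 31.1 normalised CPM in FACS replicates 1 to 3 and 193, 76.9 and 75.3 in EU replicates 1 to 3. For Trpm1 all FACS libraries lay below all EU libraries. Trpm1 had a log2 fold change of −2.60 ± 0.62 (adjusted p = 0.137) over 6 libraries and −1.98 ± 0.55 (adjusted p = 0.0714) without EU replicate 1. Grm6, the glutamate receptor that gates it, had 9.38, 3.11 and 10.03 normalised CPM in FACS and 114, 37.2 and 50.1 in EU libraries. Pcp2, a G-protein regulator of ON bipolar cells, had 0.113, 1.13 and 4.93 normalised CPM in FACS and 156, 42.8 and 30.1 in EU libraries. Cabp5, a calcium-binding protein of bipolar cells, differed from these in that the 3 EU libraries were alike: 16.1, 4.88 and 14 normalised CPM in FACS replicates 1 to 3 and 120.5, 123 and 148 in EU replicates 1 to 3. For Cabp5 all FACS libraries lay below all EU libraries. Cabp5 had a log2 fold change of −3.49 ± 0.56 (adjusted p = 0.137) over 6 libraries and −3.52 ± 0.58 (adjusted p = 0.0214) without EU replicate 1. Scgn, a calcium-binding protein of cone bipolar cells, had 8.69, 3.72 and 10.1 normalised CPM in FACS and 123, 45.6 and 93.5 in EU libraries. For Scgn all FACS libraries lay below all EU libraries. Scgn had a log2 fold change of −3.54 ± 0.63 (adjusted p = 0.137) over 6 libraries and −3.19 ± 0.64 (adjusted p = 0.0339) without EU replicate 1. Prkca, the kinase used to mark rod bipolar cells, had 44.2, 58 and 60.9 normalised CPM in FACS and 96.9, 38.3 and 38 in EU libraries, with overlap. In all, 8 of 13 tested genes had no overlap with FACS lower, against 11.6% of all genes, and 2, Cabp5 and Scgn, passed without EU replicate 1 with FACS lower, against 4.99%. The list's median log2 fold change was −2.60 and −1.98, below that of all genes on each scale.

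Genes of inhibitory interneurons were low in FACS libraries and EU replicate 1 and higher in EU replicates 2 and 3. The 16 amacrine genes summed to 27.9, 29.7 and 33.5 TPM in FACS replicates 1 to 3 and 38.5, 135 and 95.6 TPM in EU replicates 1 to 3, with no overlap. Gad2, which makes GABA (chr 2, 22622205 to 22693874), had 0.403, 0.992 and 1.75 normalised CPM in FACS replicates 1 to 3 and 3.34, 87.2 and 166 in EU replicates 1 to 3. For Gad2 all FACS libraries lay below all EU libraries. Gad2 had a log2 fold change of −6.35 ± 1.39 (adjusted p = 0.137) over 6 libraries and −6.90 ± 0.78 (adjusted p = 0.0102) without EU replicate 1. The other GABA-making enzyme, Gad1, had 0.613, 5.3 and 4.86 normalised CPM in FACS and 27.6, 89.5 and 88.1 in EU libraries. For Gad1 all FACS libraries lay below all EU libraries. Gad1 had a log2 fold change of −4.25 ± 0.95 (adjusted p = 0.137) over 6 libraries and −4.61 ± 0.92 (adjusted p = 0.0342) without EU replicate 1. Tfap2b, a transcription factor of amacrine cells, had 2.72, 3.87 and 6.81 normalised CPM in FACS and 15.2, 66.7 and 58.6 in EU libraries. For Tfap2b all FACS libraries lay below all EU libraries. Tfap2b had a log2 fold change of −3.39 ± 0.78 (adjusted p = 0.137) over 6 libraries and −3.79 ± 0.59 (adjusted p = 0.019) without EU replicate 1. For these 3 genes every FACS library lay below every EU library, and EU replicate 1 was the nearest to FACS. Of 9 amacrine genes tested with 6 libraries 7 had no overlap with FACS lower, against 11.6% of all genes. Without EU replicate 1, 6 of 11 tested were lower and 0 higher, against 4.99% and 5.5% (median log2 fold change −4.25 and −4.61). The acetylcholine genes Chat and Slc18a3 and the dopamine gene Th, which mark rarer amacrine types, had at most 1.2 normalised CPM in any of the 6 libraries. Of the horizontal cell list, Lhx1 and Onecut1 had at most 0.545 normalised CPM in any library. Calb1, a calcium-binding protein that amacrine cells also make, had 4.19, 0.635 and 1.71 normalised CPM in FACS and 14.4, 107 and 55.2 in EU libraries. For Calb1 all FACS libraries lay below all EU libraries. Calb1 had a log2 fold change of −4.75 ± 1.04 (adjusted p = 0.137) over 6 libraries and −5.19 ± 0.91 (adjusted p = 0.0249) without EU replicate 1.

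Retinal transcription factors differed in both directions. Of 28 tested without EU replicate 1, 5 were higher and 2 lower in FACS libraries, against 5.5% and 4.99% of all genes, so that the lower share is near that of all genes. The list's median log2 fold change was −0.51 with 6 libraries and −0.68 without, below that of all genes. The 5 that were higher were Mef2d, Prdm1, Nr2e3, Neurod1 and Crx, and the 2 lower were Pax6 and Six6. Mef2d, a co-factor of photoreceptor genes, had 340.3, 309 and 299.6 normalised CPM in FACS replicates 1 to 3 and 87, 47.9 and 69.8 in EU replicates 1 to 3. For Mef2d all FACS libraries lay above all EU libraries. Mef2d had a log2 fold change of 2.21 ± 0.40 (adjusted p = 0.137) over 6 libraries and 2.45 ± 0.32 (adjusted p = 0.0132) without EU replicate 1. Neurod1, which photoreceptors need to survive, had 446, 233 and 123 normalised CPM in FACS and 97.2, 13.7 and 20.3 in EU libraries. For Neurod1 all FACS libraries lay above all EU libraries. Neurod1 had a log2 fold change of 2.61 ± 0.85 (adjusted p = 0.182) over 6 libraries and 3.99 ± 0.67 (adjusted p = 0.0228) without EU replicate 1. Prdm1, which holds back bipolar fate in young photoreceptors, had 26.8, 24.5 and 20.5 normalised CPM in FACS and 5.58, 0 and 0 in EU libraries, and no fold is given because EU replicates 2 and 3 had 0. Pax6, which amacrine cells and RGC keep (chr 2, 105668900 to 105697364), had 5.37, 11.8 and 26.5 normalised CPM in FACS replicates 1 to 3 and 22.7, 313 and 407 in EU replicates 1 to 3, so that EU replicate 1 lay inside the FACS range. For Pax6 the groups overlapped. Pax6 had a log2 fold change of −4.09 ± 1.08 (adjusted p = 0.151) over 6 libraries and −4.61 ± 0.69 (adjusted p = 0.0178) without EU replicate 1. Six6, an eye-field factor kept in the inner retina, had 14.5, 19.8 and 31.9 normalised CPM in FACS and 25.5, 173 and 226 in EU libraries. For Six6 the groups overlapped. Six6 had a log2 fold change of −2.68 ± 0.78 (adjusted p = 0.155) over 6 libraries and −3.16 ± 0.43 (adjusted p = 0.0138) without EU replicate 1.

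Müller glia genes had the largest share of called members of the 36 lists once EU replicate 1 was set aside. The 14 genes summed to 1570.3, 2744 and 3049 TPM in FACS replicates 1 to 3 and 1402, 4100.1 and 4709 TPM in EU replicates 1 to 3. Each single member overlapped between the groups. Glul, glutamine synthetase (chr 1, 153899944 to 153909723), had 62.1, 105 and 164 normalised CPM in FACS replicates 1 to 3 and 51, 1765 and 2153 in EU replicates 1 to 3, with EU replicate 1 the lowest of the 6. For Glul the groups overlapped. Glul had a log2 fold change of −3.58 ± 1.16 (adjusted p = 0.177) over 6 libraries and −4.13 ± 0.47 (adjusted p = 0.0102) without EU replicate 1. Slc1a3, the glial glutamate transporter GLAST (chr 15, 8634124 to 8710764), had 60.8, 134 and 126 normalised CPM in FACS and 22.4, 1715 and 1589 in EU libraries. For Slc1a3 the groups overlapped. Slc1a3 had a log2 fold change of −3.37 ± 1.24 (adjusted p = 0.226) over 6 libraries and −3.93 ± 0.42 (adjusted p = 0.00933) without EU replicate 1. For both genes EU replicates 2 and 3 were thus above the FACS libraries by about an order of magnitude, and EU replicate 1 was below them. Rlbp1, the retinaldehyde-binding protein of Müller glia and pigment epithelium, had 185, 307 and 444 normalised CPM in FACS and 197, 1717 and 1283 in EU libraries. For Rlbp1 the groups overlapped. Rlbp1 had a log2 fold change of −1.77 ± 0.78 (adjusted p = 0.299) over 6 libraries and −2.25 ± 0.42 (adjusted p = 0.0297) without EU replicate 1. Apoe, a lipid carrier made by glia and also by macrophages, had 276, 456 and 715 normalised CPM in FACS and 278, 2229 and 2644 in EU libraries. Apoe had a log2 fold change of −1.83 ± 0.83 (adjusted p = 0.31) over 6 libraries and −2.32 ± 0.44 (adjusted p = 0.0303) without EU replicate 1. Clu, a secreted chaperone, had 253, 306 and 614 normalised CPM in FACS and 258, 2522 and 2047 in EU libraries. Its log2 fold change was −2.04 ± 0.83 (adjusted p = 0.269) over 6 libraries and −2.53 ± 0.45 (adjusted p = 0.0259) without EU replicate 1. Without EU replicate 1, 12 of 14 were lower in FACS libraries and 0 higher, against 4.99% and 5.5% of all genes (median log2 fold change −2.58 against 0.40, and −2.08 with 6 libraries). With 6 libraries, 0 of 14 had groups without overlap. The astrocyte genes Gfap and Pax2 had at most 4.51 and 0.0237 normalised CPM in any library.

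RGC genes were low in all 6 libraries, the label RGC notwithstanding. The 15 identity genes summed to 62.9, 39 and 45.9 TPM in FACS replicates 1 to 3 and 46.3, 224 and 352 TPM in EU replicates 1 to 3, against 3402 and 5918 TPM for rod genes and 4100.1 and 4709 TPM for Müller glia genes in EU replicates 2 and 3. Thy1, a surface protein of RGC (chr 9, 44043384 to 44048579), had 8.24, 2.32 and 2.99 normalised CPM in FACS replicates 1 to 3 and 2.58, 125 and 122 in EU replicates 1 to 3. EU replicate 1 lay among the FACS libraries and EU replicates 2 and 3 far above. For Thy1 the groups overlapped. Thy1 had a log2 fold change of −4.20 ± 1.28 (adjusted p = 0.163) over 6 libraries and −4.75 ± 0.67 (adjusted p = 0.0144) without EU replicate 1. Nefl, the light neurofilament subunit, had 23.1, 6.43 and 13.9 normalised CPM in FACS and 24.6, 378 and 348 in EU libraries. For Nefl all FACS libraries lay below all EU libraries. Nefl had a log2 fold change of −4.11 ± 1.01 (adjusted p = 0.14) over 6 libraries and −4.62 ± 0.57 (adjusted p = 0.0115) without EU replicate 1. Sncg, gamma-synuclein, had 1.02, 0.263 and 1.26 normalised CPM in FACS and 1.31, 51.1 and 71.1 in EU libraries. For Sncg all FACS libraries lay below all EU libraries. Sncg had a log2 fold change of −5.60 ± 1.45 (adjusted p = 0.148) over 6 libraries and −6.15 ± 0.85 (adjusted p = 0.014) without EU replicate 1. Ebf3, a transcription factor of RGC and amacrine cells, had 1.43, 1.13 and 0.593 normalised CPM in FACS and 2.34, 85.7 and 57.3 in EU libraries. For Ebf3 all FACS libraries lay below all EU libraries. Ebf3 had a log2 fold change of −5.52 ± 1.28 (adjusted p = 0.137) over 6 libraries and −6.06 ± 0.64 (adjusted p = 0.00929) without EU replicate 1.

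The most specific RGC genes were uneven even between EU replicates 2 and 3. Rbpms, the RNA-binding protein used to mark all RGC, had 2.32, 2.48 and 2.94 normalised CPM in FACS and 1.48, 4.16 and 0 in EU libraries. Pou4f2 (BRN3B), which sets RGC fate, was at 0 in 5 libraries and had 15.9 normalised CPM in EU replicate 2. Pou4f1 (BRN3A) had 0.113, 0.341 and 0.0948 normalised CPM in FACS and 0.172, 6.99 and 96.7 in EU libraries. Slc17a6, the vesicular glutamate transporter of RGC, had 0.177, 0 and 0.0711 normalised CPM in FACS and 0.103, 5.17 and 14.5 in EU libraries. Isl2 reached 0.664 normalised CPM at most. The summed RGC list of EU replicate 1 lay inside the FACS range, and EU replicates 2 and 3 held RGC genes beside larger amounts of rod and Müller glia transcripts. Of 12 identity genes tested without EU replicate 1, 5 were lower in FACS libraries and 0 higher, against 4.99% and 5.5% of all genes. Of 11 tested with 6 libraries 4 had no overlap with FACS lower, against 11.6% (median log2 fold change −4.89 and −4.20). Among genes of RGC subtypes, Opn4 (melanopsin, of light-sensitive RGC) was at 0 in all 6 libraries. Cartpt, a neuropeptide of direction-selective RGC and of amacrine cells (chr 13, 99898489 to 99901091), had 3.5, 0.558 and 1.47 normalised CPM in FACS replicates 1 to 3 and 23.9, 222 and 225 in EU replicates 1 to 3. For Cartpt all FACS libraries lay below all EU libraries. Cartpt had a log2 fold change of −6.41 ± 1.13 (adjusted p = 0.137) over 6 libraries and −6.90 ± 0.84 (adjusted p = 0.0112) without EU replicate 1. Without Cartpt, the subtype genes summed to 161, 128 and 131 TPM in FACS replicates 1 to 3 and 89.1, 31.1 and 81.5 TPM in EU replicates 1 to 3. Every FACS library was thus higher in this sum, on a scale that a large mitochondrial share lowers. Mitochondrially encoded genes held 13.5, 7.29 and 4.91% of TPM in FACS and 18.3, 67.5 and 60.3% in EU libraries. With these genes left out of the TPM total, EU replicate 3 would be the highest, so the order depends on the scale. Of 9 subtype genes tested with 6 libraries, 1 had no overlap with FACS higher and 1 with FACS lower, against 18.9% and 11.6% of all genes. The subtype list as a whole had a median log2 fold change of −0.028 with 6 libraries and −1.59 without EU replicate 1, and on log2(TPM + 1) it lay above the median of all genes without EU replicate 1, by 0.20.

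Neuronal genes outside the marker lists went both ways. Of 29 axonal cytoskeleton and transport genes, 3 were higher and 8 lower without EU replicate 1, against 5.5% and 4.99% of all genes (median log2 fold change −1.20, and −1.25 with 6 libraries). The 3 higher ones were Dpysl3, Dync1h1 and Map1b. Dpysl3, a collapsin response mediator, had 544, 824 and 992 normalised CPM in FACS replicates 1 to 3 and 256, 66.2 and 32.2 in EU replicates 1 to 3. For Dpysl3 all FACS libraries lay above all EU libraries. Dpysl3 had a log2 fold change of 2.74 ± 0.79 (adjusted p = 0.154) over 6 libraries and 4.02 ± 0.52 (adjusted p = 0.0123) without EU replicate 1. Map1b, which binds microtubules in growing axons, had 612, 634 and 919 normalised CPM in FACS and 316, 108 and 243 in EU libraries. For Map1b all FACS libraries lay above all EU libraries. Map1b had a log2 fold change of 1.70 ± 0.51 (adjusted p = 0.162) over 6 libraries and 2.06 ± 0.46 (adjusted p = 0.0445) without EU replicate 1. Kif5c, a kinesin motor of neurons, went the other way with 44.9, 21.4 and 28.8 normalised CPM in FACS and 21.5, 544 and 518 in EU libraries. For Kif5c the groups overlapped. Kif5c had a log2 fold change of −3.51 ± 1.03 (adjusted p = 0.156) over 6 libraries and −4.05 ± 0.40 (adjusted p = 0.00893) without EU replicate 1. Stmn3, which binds tubulin, likewise had 38.2, 13.5 and 18.6 normalised CPM in FACS and 85.3, 289 and 319 in EU libraries. For Stmn3 all FACS libraries lay below all EU libraries. Stmn3 had a log2 fold change of −3.30 ± 0.67 (adjusted p = 0.137) over 6 libraries and −3.68 ± 0.50 (adjusted p = 0.0138) without EU replicate 1. Of 17 sodium and potassium channel genes tested without EU replicate 1, 1 was higher and 2 were lower, against 5.5% and 4.99% of all genes, so that the higher share is near that of all genes. Of 16 tested with 6 libraries, 8 had no overlap with FACS lower, against 11.6%. On TPM, 3 channel genes had no overlap with FACS lower and 3 with FACS higher. In sum the 19 listed channel genes had 657, 434 and 278 TPM in FACS and 151, 68.2 and 57.8 TPM in EU libraries, with every FACS library higher. The channel list's median log2 fold change was −3.54 with 6 libraries and −3.47 without EU replicate 1. Among long noncoding RNAs, Meg3 had 46.9, 11.1 and 32.2 normalised CPM in FACS and 99, 200.1 and 258 in EU libraries. For Meg3 all FACS libraries lay below all EU libraries. Meg3 had a log2 fold change of −2.63 ± 0.64 (adjusted p = 0.138) over 6 libraries and −2.91 ± 0.61 (adjusted p = 0.0373) without EU replicate 1. Snhg11 had 3.27, 0.589 and 2.11 normalised CPM in FACS and 9.98, 222 and 183 in EU libraries. For Snhg11 all FACS libraries lay below all EU libraries. Snhg11 had a log2 fold change of −6.12 ± 1.25 (adjusted p = 0.137) over 6 libraries and −6.65 ± 0.78 (adjusted p = 0.0109) without EU replicate 1. Malat1, a nuclear RNA, overlapped, with 279, 643 and 475 normalised CPM in FACS and 317, 389.8 and 403 in EU libraries.

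Microglia genes were low in FACS libraries and summed to more in each EU library. The 14 genes summed to 13.9, 18.8 and 16.9 TPM in FACS replicates 1 to 3 and 53.3, 299 and 686 TPM in EU replicates 1 to 3, with no overlap. Ctss, the lysosomal protease cathepsin S, had 0, 1.83 and 0 normalised CPM in FACS and 3.61, 152 and 320.0 in EU libraries. Ctss did not pass, at −8.55 ± 2.16 (adjusted p = 0.0577) without EU replicate 1, and had −7.996 ± 2.44 (adjusted p = 0.164) over 6 libraries. P2ry12 and Tmem119 separate microglia from other macrophages. P2ry12 had 0, 0 and 0.119 normalised CPM in FACS and 0.929, 38.9 and 36.3 in EU libraries. Tmem119 had 0, 0 and 0.972 normalised CPM in FACS and 0, 30.1 and 7.55 in EU libraries. C1qc, a chain of complement C1q, had 2.74, 0.527 and 0.119 normalised CPM in FACS and 3.96, 37 and 143 in EU libraries. For C1qc all FACS libraries lay below all EU libraries. C1qc had a log2 fold change of −5.75 ± 1.61 (adjusted p = 0.154) over 6 libraries and −6.28 ± 1.40 (adjusted p = 0.0439) without EU replicate 1. Of 12 microglia genes tested, 10 had no overlap with FACS lower, against 11.6% of all genes. Of 13 tested without EU replicate 1, 3 were lower and 0 higher, against 4.99% and 5.5% (median log2 fold change −6.25 and −7.29). The list stayed below the median of all genes under every scaling tried.

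Transcripts from outside the neural retina differed by source. The 21 lens genes summed to 0, 149 and 11.5 TPM in FACS replicates 1 to 3 and 690.0, 4897 and 5479.6 TPM in EU replicates 1 to 3, so that every EU library held more than every FACS library. Cryba1, a beta-crystallin of lens fibres (chr 11, 77718615 to 77725283), had 0, 0.914 and 0.237 normalised CPM in FACS replicates 1 to 3 and 17.5, 745 and 724 in EU replicates 1 to 3. For Cryba1 all FACS libraries lay below all EU libraries. Cryba1 had a log2 fold change of −10.31 ± 2.08 (adjusted p = 0.137) over 6 libraries and −10.85 ± 1.54 (adjusted p = 0.0149) without EU replicate 1. Among gamma-crystallins, Crygf had 0, 0.0465 and 0 normalised CPM in FACS and 14.1, 202 and 185 in EU libraries. Crygs had 0, 0.294 and 0.64 normalised CPM in FACS and 6.88, 174 and 246 in EU libraries. Since gamma-crystallins are near copies of each other, the split of reads between members is uncertain. Of 15 lens genes tested, 14 had no overlap with FACS lower, against 11.6% of all genes. Of 17 tested without EU replicate 1, 9 were lower and 0 higher, against 4.99% and 5.5% (median log2 fold change −8.25 and −8.77). The promoter of Cryba1 is shown as that of the lens gene described here: 250 bases before the start from RefSeq on GRCm38.p6, chr11:77725294-77725543 on the minus strand. Capitals mark TGCTGA, a core of the element that MAF factors of the lens recognise, or its reverse complement TCAGCA.
Cryba1: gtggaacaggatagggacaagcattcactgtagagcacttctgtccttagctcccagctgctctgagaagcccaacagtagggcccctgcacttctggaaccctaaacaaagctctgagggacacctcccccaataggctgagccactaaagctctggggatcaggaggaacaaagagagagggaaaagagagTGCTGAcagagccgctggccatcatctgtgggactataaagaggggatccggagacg
The match starts at -57. TGCTGA was present on either strand in 13 of 20 lens promoters (65%), in 2 of 10 rod promoters and in 15.8% of all 27025. In none of the promoters shown does it overlap a TAATCC match.

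Red blood cell genes summed to most in EU replicate 1, with list sums of 207, 105 and 110.5 TPM in FACS replicates 1 to 3 and 1554, 512 and 58.8 TPM in EU replicates 1 to 3. The adult beta-globin Hbb-bs had 6.32, 3.66 and 6.52 normalised CPM in FACS and 119, 136 and 9.6 in EU libraries. Shared reads with its near copy Hbb-bt make its level uncertain. For Hbb-bs all FACS libraries lay below all EU libraries. Hbb-bs had a log2 fold change of −4.003 ± 0.94 (adjusted p = 0.137) over 6 libraries and −3.70 ± 1.05 (adjusted p = 0.0732) without EU replicate 1. The vascular lists did not separate the groups as a whole. Vtn (vitronectin), listed as a pericyte gene, had 1182, 905 and 1612 normalised CPM in FACS replicates 1 to 3 and 1693, 246 and 189 in EU replicates 1 to 3. For Vtn the groups overlapped. Vtn had a log2 fold change of 0.80 ± 0.85 (adjusted p = 0.679) over 6 libraries and 2.52 ± 0.39 (adjusted p = 0.0182) without EU replicate 1. Like the rod genes, Vtn was low in EU replicates 2 and 3 alone, and it carried most of the sum of the pericyte list. That sum was 1580.4, 1529 and 1767 TPM in FACS replicates 1 to 3 and 1678, 103 and 100.5 TPM in EU replicates 1 to 3. The pericyte list's median on log2(TPM + 1) was 1.09 with 6 libraries, against 1.10 for all genes. Without EU replicate 1 it was 1.36 against 1.59. The endothelial gene Pecam1 had 0.403, 4.42 and 4.03 normalised CPM in FACS and 2.55, 0 and 0 in EU libraries. The endothelial list had a median log2 fold change of −1.60 with 6 libraries and 3.29 without EU replicate 1. On log2(TPM + 1) these medians were 0.65 and −0.15, so that the list of 7 tested genes has no stable direction. Rpe65, the isomerase of pigment epithelium, was at 0 in the FACS libraries and had 0.585, 20.9 and 0.0662 normalised CPM in the EU libraries. The oligodendrocyte list summed to 8.88, 18.5 and 26.5 TPM in FACS and 6.45, 29.4 and 11.4 TPM in EU libraries, with overlap.

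**Figure D4:**
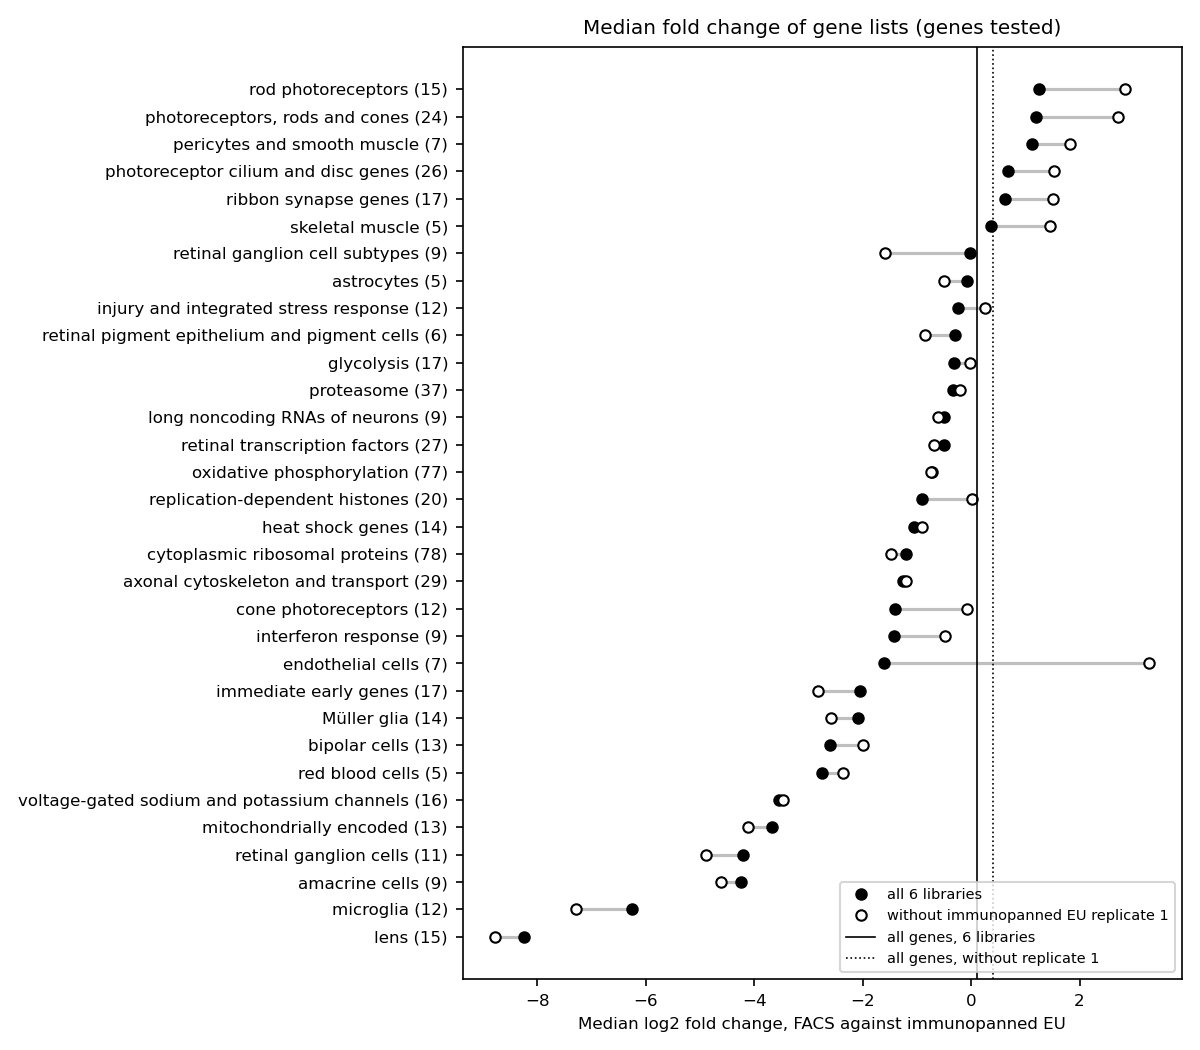
Median log2 fold change (x axis, FACS minus immunopanned EU, TMM-normalised counts) of the gene lists with at least 5 tested genes (y axis, number tested with 6 libraries in parentheses), filled points for all 6 libraries and open points without EU replicate 1, with the median of all genes as lines. Rod, joint photoreceptor, cilium, ribbon and pericyte lists lie to the right of both lines and move further right without EU replicate 1, while the endothelial list changes sign.

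Mitochondrially encoded genes and nuclear genes of oxidative phosphorylation both lay below the median of all genes, the mitochondrial ones by more. The 13 mitochondrially encoded genes had medians of −3.67 and, without EU replicate 1, −4.11 on the log2 scale, with 10 of 13 lower in FACS libraries and 0 higher without EU replicate 1, against 4.99% and 5.5% of all genes. mt-Co3, a subunit of cytochrome c oxidase (chr M, 8607 to 9390), had 2289, 1934 and 1914 normalised CPM in FACS replicates 1 to 3 and 10988, 108100 and 97005 in EU replicates 1 to 3. For mt-Co3 all FACS libraries lay below all EU libraries. mt-Co3 had a log2 fold change of −5.14 ± 1.33 (adjusted p = 0.148) over 6 libraries and −5.63 ± 0.41 (adjusted p = 0.00893) without EU replicate 1. The gene mt-Co2, another subunit, had 5235, 2265 and 3279 normalised CPM in FACS and 8439, 142390 and 122510 in EU libraries. For mt-Co2 all FACS libraries lay below all EU libraries. mt-Co2 had a log2 fold change of −4.66 ± 1.46 (adjusted p = 0.171) over 6 libraries and −5.18 ± 0.54 (adjusted p = 0.00893) without EU replicate 1. Both were lowest in FACS libraries, intermediate in EU replicate 1 and higher by an order of magnitude in EU replicates 2 and 3. Reads shared with nuclear copies make their levels uncertain. Of 77 nuclear genes of oxidative phosphorylation, 2 were higher and 17 lower without EU replicate 1, against 5.5% and 4.99% of all genes (median log2 fold change −0.74, and −0.73 with 6 libraries). With 6 libraries, 30 of these 77 had no overlap with FACS lower and 1 with FACS higher, against 11.6% and 18.9%. Of 79 cytoplasmic ribosomal protein genes, 0 were higher and 22 lower without EU replicate 1, against 5.5% and 4.99% of all genes (median −1.48). Of 78 tested with 6 libraries, 37 had no overlap with FACS lower, against 11.6% (median −1.19). On log2(TPM + 1) the medians of these nuclear lists were above 0, at 0.59 and 0.25, yet below the 1.10 of all genes. On TPM, 17 oxidative phosphorylation genes had no overlap with FACS higher and 9 with FACS lower. For ribosomal protein genes these counts were 6 and 6, against 4663 and 655 of all genes. In glycolysis, 2 of 17 genes were higher and 0 lower without EU replicate 1, namely Ldha and Hk1, against 5.5% and 4.99% of all genes. With 6 libraries, 1 of 17 had no overlap with FACS higher and 5 with FACS lower, against 18.9% and 11.6%. On TPM these glycolysis counts were 3 and 0. Ldha, lactate dehydrogenase, had 3865, 3888 and 7232 normalised CPM in FACS and 4375, 778 and 1068 in EU libraries. For Ldha the groups overlapped. Ldha had a log2 fold change of 1.27 ± 0.80 (adjusted p = 0.471) over 6 libraries and 2.46 ± 0.45 (adjusted p = 0.0279) without EU replicate 1. Hk1, the first enzyme of the pathway, had 366, 249 and 330.1 normalised CPM in FACS and 239, 57.1 and 69.5 in EU libraries. For Hk1 all FACS libraries lay above all EU libraries. Hk1 had a log2 fold change of 1.37 ± 0.61 (adjusted p = 0.303) over 6 libraries and 2.33 ± 0.33 (adjusted p = 0.0149) without EU replicate 1. Gapdh had 5613, 4134 and 13057 normalised CPM in FACS and 12877, 5068 and 6334 in EU libraries, with overlap. The glycolysis list's median was −0.31 with 6 libraries and −0.012 without EU replicate 1, and it lay above that of all genes on log2(TPM + 1) without EU replicate 1, by 0.017.

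Some genes that respond to handling of cells were lower in FACS libraries than in EU replicates 2 and 3. Of 19 immediate early genes tested without EU replicate 1, 5 were lower and 0 higher, namely Ier2, Junb, Dusp1, Fos and Egr3, against 4.99% and 5.5% of all genes (median log2 fold change −2.82, and −2.04 with 6 libraries). Of 17 tested with 6 libraries, 1 had no overlap with FACS higher and 1, Fos, with FACS lower. Both shares are below the 18.9% and 11.6% of all genes. Fos (chr 12, 85473890 to 85477273) had 117, 107 and 40.8 normalised CPM in FACS replicates 1 to 3 and 154, 732 and 1015 in EU replicates 1 to 3. For Fos all FACS libraries lay below all EU libraries. Fos had a log2 fold change of −2.84 ± 0.76 (adjusted p = 0.153) over 6 libraries and −3.29 ± 0.50 (adjusted p = 0.0183) without EU replicate 1. Dusp1, a phosphatase that ends MAP kinase signalling, had 4.55, 22.9 and 12.8 normalised CPM in FACS and 15.8, 275 and 424 in EU libraries, with EU replicate 1 inside the FACS range. For Dusp1 the groups overlapped. Dusp1 had a log2 fold change of −4.15 ± 1.14 (adjusted p = 0.154) over 6 libraries and −4.68 ± 0.70 (adjusted p = 0.0174) without EU replicate 1. Of 15 heat shock genes tested without EU replicate 1, 1 was higher and 5 lower, against 5.5% and 4.99% of all genes, so that the higher share is near that of all genes. With 6 libraries 8 of 14 had no overlap with FACS lower, against 11.6% (median log2 fold change −1.06 with 6 libraries and −0.91 without EU replicate 1). On TPM, 3 heat shock genes had no overlap with FACS lower and 2 with FACS higher. Hspa5, the chaperone BiP of the endoplasmic reticulum, had 184, 190.0 and 152 normalised CPM in FACS replicates 1 to 3 and 489, 656 and 786 in EU replicates 1 to 3, with EU replicate 1 on the side of its own group. For Hspa5 all FACS libraries lay below all EU libraries. Hspa5 had a log2 fold change of −1.88 ± 0.41 (adjusted p = 0.137) over 6 libraries and −2.02 ± 0.27 (adjusted p = 0.0132) without EU replicate 1. The co-chaperone Dnaja1 had 99.8, 62.4 and 72.5 normalised CPM in FACS and 290.0, 422 and 464 in EU libraries. For Dnaja1 all FACS libraries lay below all EU libraries. Dnaja1 had a log2 fold change of −2.32 ± 0.42 (adjusted p = 0.137) over 6 libraries and −2.48 ± 0.31 (adjusted p = 0.012) without EU replicate 1. The higher one was the inducible Hspa1a, with 81, 68.9 and 48.6 normalised CPM in FACS and 40.5, 6.93 and 3.05 in EU libraries. For Hspa1a all FACS libraries lay above all EU libraries. Hspa1a had a log2 fold change of 1.97 ± 0.91 (adjusted p = 0.326) over 6 libraries and 3.75 ± 0.61 (adjusted p = 0.0208) without EU replicate 1. Among 12 injury and stress genes, 2 were higher and 1 lower without EU replicate 1, against 5.5% and 4.99% of all genes, so that the lower share is near that of all genes. With 6 libraries, 1 had no overlap with FACS higher and 2 with FACS lower, against 18.9% and 11.6% of all genes. The first share is thus below that of all genes and the second near it. The median log2 fold change was −0.24 with 6 libraries and 0.25 without EU replicate 1. The lower one was Atf3, a factor induced by injury, with 9.38, 7.28 and 6.59 normalised CPM in FACS and 19.2, 106 and 109.6 in EU libraries. For Atf3 all FACS libraries lay below all EU libraries. Atf3 had a log2 fold change of −3.33 ± 0.72 (adjusted p = 0.137) over 6 libraries and −3.78 ± 0.39 (adjusted p = 0.00893) without EU replicate 1. The higher ones were Gadd45a and Trib3, and Gadd45a, which responds to DNA damage, had 117, 96.7 and 136 normalised CPM in FACS and 101, 18.9 and 16.6 in EU libraries. For Gadd45a the groups overlapped. Gadd45a had a log2 fold change of 1.36 ± 0.73 (adjusted p = 0.393) over 6 libraries and 2.73 ± 0.37 (adjusted p = 0.0135) without EU replicate 1. Cdkn1a (p21) had 26.5, 29.98 and 29.7 normalised CPM in FACS and 1.07, 1.39 and 5.63 in EU libraries, with no overlap. It did not pass, at 3.05 ± 0.84 (adjusted p = 0.0706) without EU replicate 1, and had 3.42 ± 0.91 (adjusted p = 0.152) over 6 libraries. The log2 fold changes of Fos, Dusp1 and Atf3 had the other sign when the FACS libraries were set against immunopanned replicates 2 and 3 without EU capture, at 3.36, 0.56 and 4.02. Lens genes held 29.95% and 32.9% of the counts of these 2 libraries.

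Some genes separated the groups in all 6 libraries by a wide margin, EU replicate 1 included. They were chosen after their values were seen, as those with the smallest unadjusted p among genes with no overlap, and none passed the adjusted test with 6 libraries. With FACS higher, Nfic, a transcription factor (chr 10, 81396186 to 81455635), had 125, 107 and 108 normalised CPM in FACS replicates 1 to 3 and 14.4, 15.8 and 17.2 in EU replicates 1 to 3. For Nfic all FACS libraries lay above all EU libraries. Nfic had a log2 fold change of 2.84 ± 0.39 (adjusted p = 0.137) over 6 libraries and 2.80 ± 0.35 (adjusted p = 0.0117) without EU replicate 1. Tob2, a regulator of mRNA deadenylation (chr 15, 81848272 to 81858796), had 179, 185 and 131 normalised CPM in FACS and 25.1, 11.8 and 7.48 in EU libraries. For Tob2 all FACS libraries lay above all EU libraries. Tob2 had a log2 fold change of 3.48 ± 0.56 (adjusted p = 0.137) over 6 libraries and 4.12 ± 0.43 (adjusted p = 0.00893) without EU replicate 1. In both, EU replicate 1 was close to EU replicates 2 and 3. With FACS lower, Pgrmc1, a haem-binding membrane protein (chr X, 36598206 to 36606079), had 56.5, 52.1 and 61.8 normalised CPM in FACS replicates 1 to 3 and 404, 1562 and 947 in EU replicates 1 to 3. For Pgrmc1 all FACS libraries lay below all EU libraries. Pgrmc1 had a log2 fold change of −4.10 ± 0.61 (adjusted p = 0.137) over 6 libraries and −4.44 ± 0.34 (adjusted p = 0.00893) without EU replicate 1. Prune2 (chr 19, 16956118 to 17223932) had 3.47, 3.66 and 5.17 normalised CPM in FACS and 47, 295 and 153 in EU libraries. For Prune2 all FACS libraries lay below all EU libraries. Prune2 had a log2 fold change of −5.33 ± 0.76 (adjusted p = 0.137) over 6 libraries and −5.75 ± 0.46 (adjusted p = 0.00893) without EU replicate 1. The others of this kind were Chek2, Wdtc1, Fam222a, Cuedc1, Socs7, Igf1r, Ago2 and Ptpn21 with FACS higher, and Nap1l5, Sphkap, Crygf, Dusp3, Lrtm1, Vbp1, Atp6v1g2 and Cabp5 with FACS lower. None of the 10 with FACS higher is in a photoreceptor list.

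Among genes without overlap between the groups, direction went in part with transcript length. Over 5 equal groups of genes ordered by their longest annotated transcript, the share with FACS higher and no overlap was 15%, 15.9%, 18.8%, 20.6% and 24.3% from the shortest (median 1181 bases) to the longest (median 6697 bases). The share with FACS lower was 14.3%, 11.9%, 11.5%, 11.8% and 8.64% in the same order, and so was flat in the middle. Over all tested genes, Spearman's correlation of length with log2 fold change was only 0.012, and −0.053 without EU replicate 1. The median log2 fold change of these groups was −0.02 in the shortest and 0.17 in the longest with 6 libraries, and 0.31, 0.45, 0.37, 0.26 and 0.23 from shortest to longest without EU replicate 1. The medians thus differed in their course with and without that library. Removing a trend on length left 0 called genes. The part of length in the single results above was not tested.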

How the data were processed

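Messenger RNA was sequenced from 6 eye libraries, 3 of FACS cells and 3 of EU-captured RNA of immunopanned cells. Salmon and mm10 are named in the submitters' processing notes, with versions that are not stated in the sources used here. One deposited table holds estimated counts per Ensembl gene and the other holds TPM, as the file headers and values show. The labels' protocol describes EU capture by click chemistry from pools of 3 animals, for the superior colliculus, and Nextera XT libraries. Of 54331 genes, 54097 were matched to GENCODE M21 (GRCm38).

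Estimated counts were rounded, filtered with filterByExpr and scaled with TMM factors in edgeR 4.0.16 (R 4.3.3). A quasi-likelihood F test, two-sided, compared the 2 groups alone, with Benjamini-Hochberg adjustment over all tested genes and a threshold of 0.05. The procedure was tested on simulated data. Alternatives used DESeq2 1.42.0, limma 3.58.1 on log2(TPM + 1) or log2(TPM + 0.1), RLE factors, other filters, other eye libraries and each library left out. Dropping EU replicate 1 together with another change was added after seeing the data. Group sums and gene lists (36, of which 20 mark cell types) are described without a test, since 3 against 3 libraries cannot go below 0.10 in an exact permutation test. The members and lists were chosen with earlier results of these data known. Genes were to be named among the 10 largest called rises and falls that are at least 1 in absolute log2 fold change and 4 in average log2 CPM and whose groups do not overlap, of which there were 0 with 6 libraries. Predicted genes were left out. Without EU replicate 1 there were 1421. The 10 largest rises there were Pdia4, Dcun1d3, Dnaic2, Tmem26, Ptpru, Zfp653, Arid3b, Angel1, Akna and Trim36, none in a photoreceptor list. The 10 largest falls were Mpeg1, Crygf, Tmem117, Cryba1, P2ry13, Crygc, Crygb, Glra2, Crygs and AI593442. To these were added, for each list, the 3 members with the highest mean TPM and the 3 called members with the smallest adjusted p, and for cell lists the first 3 members. Not all of them are reported, and other members were chosen after their values were seen.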

Additional observations from a re-analysis of the deposited data

How the results depend on the processing

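The number of called genes depended on the processing and on EU replicate 1. With all 6 libraries in edgeR it was 0, and leaving out 1 library gave 0 to 1777 genes, 0 to 932 higher and 0 to 845 lower, in 0 to 28 of the 36 lists, with every call in the fit without EU replicate 1. DESeq2 called 1952 genes (661 higher and 1291 lower) in 29 lists, limma on log2(TPM + 1) 748 genes (676 higher and 72 lower) in 13 lists, with a pseudocount of 0.1 221 genes (203 higher and 18 lower) in 5 lists, and with no filter 73 genes (71 higher and 2 lower) in 2 lists. edgeR with no filter called 111 genes (24 higher and 87 lower) in 8 lists, and with fmr1ko FACS libraries in place of wild type 16 genes (4 higher and 12 lower) in 3 lists. RLE factors, all 12 eye libraries, immunopanned libraries without EU capture, a length trend removed, and leaving out mitochondrial, lens and CT010467.1 genes (the last annotated as ribosomal RNA) or photoreceptor genes gave 0. Without EU replicate 1, alternatives added after seeing the data called 5215 genes (2818 higher and 2397 lower) in 33 lists with DESeq2, 6745 genes (6233 higher and 512 lower) in 32 lists with limma on TPM, 1765 genes (900 higher and 865 lower) in 26 lists without mitochondrial, lens and CT010467.1 genes, and 1221 genes (498 higher and 723 lower) in 27 lists with fmr1ko FACS libraries. Against immunopanned replicates 2 and 3 without EU capture, edgeR called 4986 genes (2579 higher and 2407 lower) in 35 lists. The cause of these differences between settings was not tested, and fewer libraries entered where 1 was left out.

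The log2 ratio of summed TPM, FACS over EU, was 1.79 for rods (1.27 to 4.38 with 1 library left out) and −0.51 for cones (−1.01 to 1.997, with a change of sign). It was −1.56 for amacrine cells, −2.85 on percent of counts and −2.82 on TPM without mitochondrial genes, and −0.47 for Müller glia and −1.71 on the latter scale. The ratios for bipolar cells, RGC and microglia kept their direction under each alternative run. They were −2.45 (−3.07 to −1.33), −2.07 (−3.32 to −1.45) and −4.39 (−5.65 to −3.41). Each moved by less than the larger SD of the log2 sums within a group. Signs of single genes turned as follows, and the cause was not tested. Against all immunopanned libraries without EU capture, the log2 fold change was −0.10 for Crx, 1.75 for Fos, 1.07 for Dusp1, −0.40 for Cdkn1a and −0.0076 for Ldha. Against their replicates 2 and 3 it was −0.10 for Gnat1, −0.65 for Crx, −0.17 for Nrl, −0.10 for Neurod1, 3.36 for Fos, 0.56 for Dusp1, 4.02 for Atf3, −0.35 for Gadd45a and −0.56 for Ldha. With fmr1ko FACS libraries, Hbb-bs was 0.41, and without EU replicate 1 Hbb-bs was 0.60 and Opn1mw 0.39. On TPM, Opn1mw was 0.033 with a pseudocount of 0.1 and 1.78 without EU replicate 1. No paired analysis was possible because the title codes of the 2 groups share fewer than 2 numbers. Genes with under 1 normalised CPM in a group rest on few counts, and their fold changes depend on the prior count.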

Other observations

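Of the other eye libraries of the series, 3 of FACS cells carry the label fmr1ko at P14, and 3 are of immunopanned RGC at P14 without EU capture. The fmr1ko FACS libraries had summed TPM of 77579, 77632 and 66532 for rod genes, 181, 286 and 86.9 for bipolar genes, 1818, 2952 and 2822 for Müller glia genes, 151, 48.9 and 63.7 for RGC genes and 28.7, 7.75 and 53.1 for microglia genes. Their rod sums lay within or just below the range of the wild-type FACS libraries. Fibroblast genes summed to 414, 295 and 558 TPM there, against 73.4, 20.2 and 263 in wild-type FACS and 11.7, 7.7 and 5.86 in immunopanned EU libraries. Red blood cell genes summed to 1667, 1255 and 1610.4 TPM, above all 3 wild-type FACS libraries.

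The immunopanned libraries without EU capture had summed TPM of 93.7, 4659.5 and 4133 for rod genes, 64.2, 741 and 781 for Müller glia genes, 29.7, 47.4 and 53.2 for RGC genes and 18.1, 5.14 and 7.8 for microglia genes. Lens genes summed to 11.2, 458559 and 501191 TPM and mitochondrially encoded genes to 1021, 411246 and 357939 TPM, which lowers the TPM of all other genes in replicates 2 and 3. Without mitochondrial genes, lens genes still had 778863 and 780598 TPM in these. Replicate 1 had low sums in most lists, with 465, 13682 and 11502 TPM for cytoplasmic ribosomal protein genes and 264, 2791 and 3097 for glycolysis genes over replicates 1 to 3, while it was the highest of its group in microglia genes. Pigment cell genes summed to 23.5, 566 and 539.5 TPM, against 69.1, 28.7 and 1.78 in the immunopanned EU libraries.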
